A study of Mus musculus with 7 samples.

Results

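The 47 nuclear receptor genes analysed here were taken as a family by name, from the thyroid hormone receptor *Thra* to the small heterodimer partner *Nr0b2*, and they are 47 of the 21911 protein-coding genes that GENCODE places on chromosomes 1 to 19, X and Y of GRCm38. The rule uses no measured value. For each gene the H3K27-Ac peaks of 3 tumour cell clones were recorded as promoter peaks, which lie within 1 kb of an annotated transcription start, as body peaks between the ends of the gene, and as bases under peaks in the gene and 50 kb on either side. *Ppara*, the gene on the far side of the H3K27-Ac domain next to *Wnt7b*, is among the 47.

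The clones came from skin tumours of *Cdkn2ab*-/- mice on an FVB/129P2 backcross, which lack p15Ink4b, p16Ink4a and p19Arf in all their cells after germline *Act*-Cre recombination. Each was picked from soft agar, so that a cell line stands for 1 anchorage-independent clone of a tumour, and it was kept untreated in serum-containing medium. Of 4 H3K27-Ac libraries 1 each came from clones 1 and 2 and 2 from clone 3, whose reads were joined, beside 3 IgG libraries, 1 from clone 1 and 2 from clone 3. The study has 1 condition, so the spread given is that between the 3 clones and no groups were tested against each other.

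Nuclear receptors are transcription factors that bind small fat-soluble ligands such as steroid and thyroid hormones, retinoids, vitamin D, fatty acids and oxysterols, or that act without a known ligand. Many bind DNA as pairs with a retinoid X receptor at direct repeats of the half-site AGGTCA, recruit corepressors without ligand and exchange them for coactivators with it. In skin, retinoic acid and vitamin D receptors take part in keratinocyte differentiation and the hair cycle, and the glucocorticoid receptor restrains inflammation and proliferation. H3K27-Ac marks active promoters and enhancers; it is not a measure of the RNA.

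The lists hold 29182, 49587 and 29277 peaks for clones 1, 2 and 3, and their weakest peaks rest on 13, 12 and 25 ChIP reads at the summit, so that a weaker site is not listed. The number of reads was solved from the deposited fold enrichment and p-value of each peak, is not adjusted for depth, and is compared within a list only. Clone 2 stands apart by its number of peaks, of which those with 12 to 29 reads have a partner in clone 1 in 14.6% and in clone 3 in 13.1%. Clones 1 and 2 may not be fully independent in their controls, which the labels do not settle. Their solved local background agreed to within 5% at 45.8% of 1787 summits that they share, against 9.09% of 1485 for clones 1 and 3 and 15.6% of 1125 for clones 2 and 3. The reason for this agreement was not tested. The median background on chromosomes 15 and 8 was 1.35 and 1.35 times that of the other autosomes in clone 1. It was 1.35 and 1.40 times in clone 2, and 1.43 and 1.43 times in clone 3. *Ppara*, *Vdr*, *Rarg* and *Nr4a1* lie on the first and *Nr2f6* and *Nr3c2* on the second. The paper reports that these cell lines gained the FVB/N copy of the chromosome that holds *Wnt7b* and *Ppara*. The part of this gain and of the raised background in the values of these genes was not tested. Of the mesenchymal markers looked at, 7 of 10 had a promoter peak in all 3 lists, among them *Vim*, *Twist1* and *Prrx1*. The others, *Col1a1*, *Col1a2* and *Pdgfra*, had one in clones 1 and 2 and none in clone 3. Of the epithelial and hair follicle markers 3 of 11 had one in all 3 lists, *Cdh3*, *Sox9* and *Itga6*. *Krt14* had one in clone 1 only and *Krt15* in clone 2 only, while *Krt5*, *Krt17*, *Trp63*, *Cdh1*, *Epcam* and *Lef1* had none in any list. The bases under peaks within 50 kb summed over the epithelial list to between 42711 and 49182 in the 3 clones and over the mesenchymal list to between 48933 and 80018. None of 5 immune and none of 4 endothelial markers had a promoter peak in every list, and of 4 melanocyte markers *Pmel* alone did. Cells labelled as from a hair follicle tumour thus lacked a promoter peak at several defining epithelial genes.

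The promoters of the family differ widely in sequence. The following stretches, read from RefSeq on GRCm38.p6 in the direction of transcription, end at or shortly before a RefSeq start, hold no annotated UTR and have CpG in capitals. They show the promoter of *Nr4a2*, marked in all 3 lists, and others marked in all 3 with fewer CpG than it (*Nr1h2* and *Nr1d1*). The *Nr2f2* stretch has no peak over it, in a gene whose strongest peaks stand at inner starts. The *Ppara* promoter is marked in clone 2 only. The last 3 promoters are unmarked, with 10 CpG (*Nr2e1*) or fewer (*Nr1i2* and *Nr0b2*).
Nr4a2: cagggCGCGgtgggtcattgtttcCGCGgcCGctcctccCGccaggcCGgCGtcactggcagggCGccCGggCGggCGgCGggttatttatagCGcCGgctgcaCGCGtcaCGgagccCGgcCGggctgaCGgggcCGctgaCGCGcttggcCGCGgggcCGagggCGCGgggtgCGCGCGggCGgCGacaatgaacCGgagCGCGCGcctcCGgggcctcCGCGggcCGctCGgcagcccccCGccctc
Nr1h2: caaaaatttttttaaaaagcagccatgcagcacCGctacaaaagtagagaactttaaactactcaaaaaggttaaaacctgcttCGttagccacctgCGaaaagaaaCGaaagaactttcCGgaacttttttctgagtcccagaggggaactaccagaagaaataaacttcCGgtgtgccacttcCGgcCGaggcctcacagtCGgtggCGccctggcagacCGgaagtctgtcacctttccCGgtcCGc
Nr1d1: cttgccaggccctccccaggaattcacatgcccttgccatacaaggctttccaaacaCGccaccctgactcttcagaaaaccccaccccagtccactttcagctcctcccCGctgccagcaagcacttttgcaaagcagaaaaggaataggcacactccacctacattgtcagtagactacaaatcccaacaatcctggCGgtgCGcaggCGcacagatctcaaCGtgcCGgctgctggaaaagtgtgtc
Nr2f2: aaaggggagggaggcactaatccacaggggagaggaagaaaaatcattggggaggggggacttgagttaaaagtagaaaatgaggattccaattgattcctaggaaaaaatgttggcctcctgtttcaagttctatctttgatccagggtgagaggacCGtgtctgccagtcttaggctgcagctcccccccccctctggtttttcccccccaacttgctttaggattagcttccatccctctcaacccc
Ppara: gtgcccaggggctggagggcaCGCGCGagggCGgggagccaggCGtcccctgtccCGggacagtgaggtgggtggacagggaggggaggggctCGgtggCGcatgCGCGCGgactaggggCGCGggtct
Nr2e1: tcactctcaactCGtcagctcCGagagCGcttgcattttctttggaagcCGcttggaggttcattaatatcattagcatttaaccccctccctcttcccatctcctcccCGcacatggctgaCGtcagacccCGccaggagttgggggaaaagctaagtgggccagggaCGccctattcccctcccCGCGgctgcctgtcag
Nr1i2: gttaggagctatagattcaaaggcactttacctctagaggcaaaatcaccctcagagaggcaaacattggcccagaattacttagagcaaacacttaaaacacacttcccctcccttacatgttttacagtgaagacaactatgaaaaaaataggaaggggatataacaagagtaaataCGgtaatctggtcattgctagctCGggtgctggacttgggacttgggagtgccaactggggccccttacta
Nr0b2: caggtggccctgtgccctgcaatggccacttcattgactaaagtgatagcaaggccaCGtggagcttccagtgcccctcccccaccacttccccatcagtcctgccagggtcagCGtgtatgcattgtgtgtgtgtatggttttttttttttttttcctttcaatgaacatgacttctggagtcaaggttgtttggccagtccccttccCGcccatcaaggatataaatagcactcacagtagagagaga
The *Nr4a2* stretch (chr2:57124004-57124253, minus strand) holds 44 CpG, or 1.10 of the number its C and G content gives. That of *Nr1h2* (chr7:44553966-44554215, minus strand) holds 13 at a ratio of 0.898, and that of *Nr1d1* (chr11:98775378-98775627, minus strand) 7 at 0.410. A peak of every list overlaps each of these 3 stretches. The *Nr2f2* stretch (chr7:70366747-70366996, minus strand) has 1 CpG and no peak over it. The *Ppara* stretch (chr15:85735647-85735775, plus strand) has 13 CpG in 129 bases and lies under the clone 2 peak. No list has a peak over the stretches of *Nr2e1* (chr10:42583633-42583834, minus strand, 10 CpG in 202 bases), *Nr1i2* (chr16:38294825-38295074, minus strand, 2 CpG) or *Nr0b2* (chr4:133553126-133553375, plus strand, 3 CpG).

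Of the 47 receptor genes, 23 had a promoter peak in all 3 lists, 3 in 2 lists, 6 in a single list and 15 in none. By clone the number was 24, 32 and 25. Over all protein-coding genes a promoter peak was present in 49.8%, 56.9% and 48.1% of genes in clones 1, 2 and 3. It was present in all 3 lists in 46.5% and in no list in 42.6%. The share of receptors marked in all 3 lists, 23 of 47, thus lies close to that of the genes at large. A smaller share of receptors than of all genes had none, 15 of 47, and a larger share was marked in clone 2, 32 of 47. With body peaks counted as well, 26 receptors were marked in all 3 lists, where 49.5% of all genes were, and 11 had neither kind in any list, where 38.0% of all genes had neither. The receptor genes are long, with a median length of 47.1 kb and 5 annotated starts against 17.4 kb and 3 starts for all protein-coding genes, which gives peaks more room in and around them. The median number of bases under peaks within 50 kb of a receptor was 2998, 5258 and 3341 in clones 1, 2 and 3, a mean of 3866 ± 1218 (SD, n = 3 clones), beside 2145, 3167 and 2160 around all genes.

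**Figure D1:**
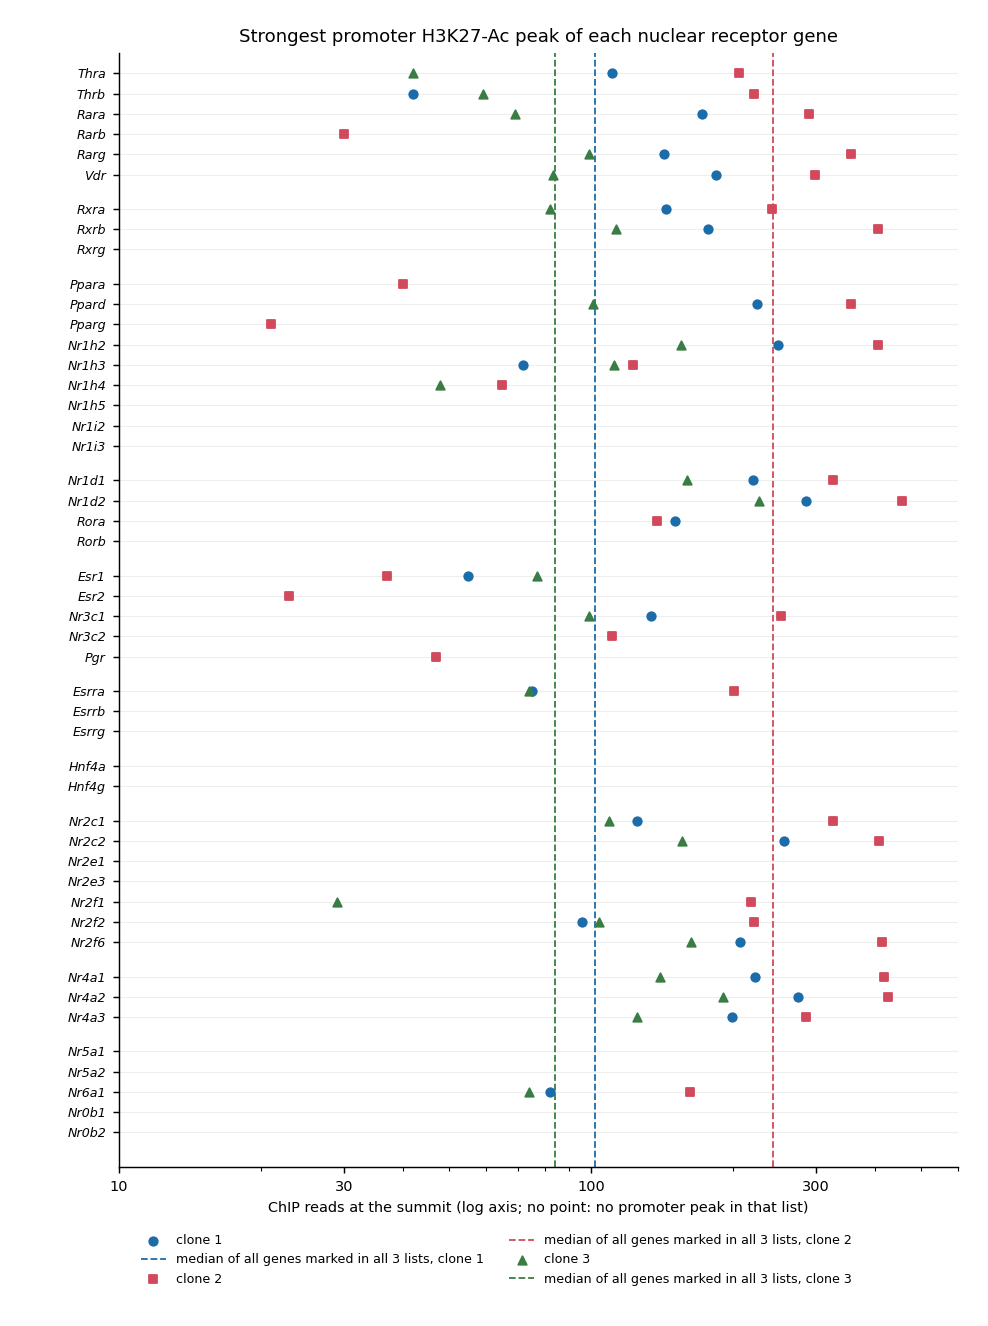
ChIP reads at the summit of the strongest promoter peak (log axis) of each of the 47 receptor genes, grouped by family, in clones 1 (circles), 2 (squares) and 3 (triangles), with dashed lines at the medians of all genes marked in all 3 lists. *Nr1d2* has the highest value in every list, with 286, 456 and 227 reads, and 15 genes have no point.

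At the median, the 23 receptors marked in all 3 lists had stronger promoter peaks than all genes marked alike. Their strongest promoter peak had a median of 172, 298 and 104 reads in clones 1, 2 and 3, beside 102, 243 and 84 reads for the 10194 genes marked in all 3 lists, and 17, 15 and 15 of the 23 lay above that median. The strongest peak was taken over all starts of a gene. The 47 receptors have a median of 5 starts, against 3 for all protein-coding genes, which was not adjusted for. The highest value in each list belonged to *Nr1d2*. At the low end stood *Thrb* in clone 1 with 42 reads, *Esr1* in clone 2 with 37 and *Thra* in clone 3 with 42. Peaks of 2 members also lie within 1 kb of a start of another protein-coding gene, those of *Rxrb* at *Slc39a7* and those of *Nr1h3* at *Acp2*, and their reads cannot be assigned to either gene. Which start a peak belongs to also decided some calls. With the outermost start alone, *Rara*, *Thra*, *Vdr*, *Nr3c1* and *Nr2f2* were no longer among the 23, and *Vdr* and *Nr3c1* then had no promoter peak in any list. *Esr1*, *Esrra*, *Rxra* and *Vdr* dropped out where a peak had to cover a start base, *Nr4a3* where its summit had to lie within 1 kb of a start, and *Nr1h3* where only starts of protein-coding transcripts counted.

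Of the receptors for thyroid hormone, retinoic acid and vitamin D, 5 of 6 had a promoter peak in all 3 lists. *Rara*, the retinoic acid receptor of most tissues, had 172, 290 and 69 reads at its strongest promoter peak in clones 1, 2 and 3. *Rarg*, the main retinoic acid receptor of epidermis, had 143, 355 and 99 reads, and its clone 1 peak was 6000 bp wide with a summit at -1145 bp from the nearest start, so that the 3 values are not of 1 site. For *Vdr*, which binds the active form of vitamin D and is needed for the hair cycle, there were 184, 298 and 83 reads. These 3 genes were above the median of all marked genes in clones 1 and 2, and in clone 3 *Rarg* alone was. *Thra*, the thyroid hormone receptor of heart, bone and skin, had 111, 206 and 42 reads, and *Thrb*, the one that the pituitary uses to sense the hormone, 42, 222 and 59. *Rarb*, a receptor gene that retinoic acid itself induces, had a promoter peak in clone 2 only, with 30 reads, although all 3 lists held body peaks, the strongest with 21, 73 and 61 reads.

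Retinoid X receptors are the common partners of that group. *Rxra* had 144, 242 and 82 reads and *Rxrb* 177, 405 and 113. *Rxrg*, which is mostly found in muscle and brain, had no promoter or body peak, and no peak within 50 kb in any list.

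Among the sensors of lipids and foreign compounds 3 of 9 were marked in all 3 lists. *Ppard*, the fatty acid receptor expressed in most tissues, had 225, 355 and 101 reads at its promoter. For *Nr1h2*, the ubiquitous oxysterol receptor, there were 249, 406 and 155 reads, and for its relative *Nr1h3* 72, 123 and 112. *Ppara*, which drives fatty acid oxidation in liver, had 40 reads in clone 2 and no promoter peak in clones 1 and 3. *Pparg*, the regulator of fat cell differentiation, had 21 reads in clone 2 and none in the others. *Nr1h4*, the bile acid receptor, had 65 reads in clone 2, 48 in clone 3 and no promoter peak in clone 1. *Nr1h5*, *Nr1i2* and *Nr1i3*, the last a pair of sensors of foreign compounds in liver, had no promoter peak.

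The clock receptors *Nr1d1* and *Nr1d2*, which repress the core clock gene *Arntl*, were marked in all 3 lists. *Nr1d1* had 220, 326 and 160 reads in clones 1, 2 and 3, and *Nr1d2* 286, 456 and 227, which put *Nr1d2* above 99.8% or more of the peaks of each list. *Rora*, an activator that competes with them for the same sites, had 151 reads in clone 1 and 138 in clone 2 but no promoter peak in clone 3. *Rorb* had none.

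Of the 5 steroid hormone receptors, *Esr1* and *Nr3c1* were marked in all 3 lists. *Nr3c1*, the glucocorticoid receptor, had 134, 253 and 99 reads; both media used for such cell lines contain serum and 1 of them hydrocortisone, and which was used for these libraries is not given in the sources used here. *Esr1*, the oestrogen receptor alpha gene, had 55, 37 and 77 reads, below the median of all marked genes in every list. *Esr2*, *Nr3c2* and *Pgr*, for oestrogen, mineralocorticoids and progesterone, had a promoter peak in clone 2 only, with 23, 111 and 47 reads. Of the oestrogen-related receptors, which bind no known natural hormone, *Esrra* was marked in all 3 lists with 75, 201 and 74 reads, and *Esrrb* and *Esrrg* had no promoter peak.

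Of the 7 testicular, tailless and COUP receptors, most of them orphans, 4 were marked in all 3 lists. *Nr2c1* had 125, 326 and 109 reads, *Nr2c2* 256, 407 and 156, and *Nr2f6* 207, 413 and 163. The COUP factor *Nr2f2*, found in mesenchyme and veins, had 96, 222 and 104 reads at starts other than that of the stretch printed above. Its paralogue *Nr2f1* had 218 reads in clone 2, 29 reads in clone 3, and no promoter peak in clone 1. *Nr2e1* and *Nr2e3*, of neural stem cells and photoreceptors, and *Hnf4a* and *Hnf4g*, of liver and gut, had none.

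All 3 immediate early receptors of the NR4A family were marked in every list. *Nr4a1* had 223, 418 and 140 reads, *Nr4a2* 275, 426 and 190, and *Nr4a3* 199, 286 and 125. Each of these 9 values lies above the median of all genes marked in all 3 lists. The summit of the *Nr4a3* peak lay at -2088, -383 and -2094 bp from the nearest start in clones 1, 2 and 3, upstream being negative. Within the last group, of steroidogenic and gonadal regulators, only *Nr6a1*, the germ cell nuclear factor, was marked, with 82, 162 and 74 reads, while *Nr5a1*, *Nr5a2*, *Nr0b1* and *Nr0b2* had no promoter peak in any list.

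Promoter peaks in some lists but not in others were found for 9 receptors, and clone 2 held all 9. The 6 of 47 members marked in clone 2 only are a larger share than the 6.15% of all protein-coding genes marked in that way. In clone 2 the 9 had between 21 and 218 reads, with a median of 47, against 37 to 456 with a median of 298 for the 23 members marked in all lists. The peaks of *Pparg* and *Esr2*, with 21 and 23 reads, were lost when clone 2 was cut to the number of peaks of clone 1, and that of *Pparg* also at a −log10 q of at least 5, whereas *Rarb*, *Ppara*, *Nr3c2* and *Pgr* kept theirs under both. That of *Nr2f1* in clone 3 was lost at the stricter q. In *Pgr* the summit lay 1.72 kb after the outermost start. *Pgr* had no promoter peak in any list where a peak had to cover a start base. The same held where the summit had to lie within 1 kb of a start. *Rarb* had none in any list with the outermost start alone. *Nr3c2* had 2 promoter peaks in clone 2, the weaker, of 67 reads, at the outermost start, and the stronger, of 111 reads, 2.39 kb into the gene. All 3 lists had a further *Nr3c2* peak about 234 kb into the gene, with 25, 45 and 43 reads.

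*Rora* was the only member with a promoter peak in clones 1 and 2 and none in clone 3. The gene spans 734.5 kb of chromosome 9, and in clones 1 and 2 it had peaks both at its outermost starts, with 61 and 67 reads, and at an inner start 636 kb further on, with 151 and 138 reads. Clone 3 had none of these. It had body peaks of 31 reads at 337 kb and 30 reads at 686 kb, the latter near peaks of 61 and 24 reads in clones 1 and 2, and its peak at the neighbouring gene *Ice2* had 170 reads, beside 207 in clone 1 and 382 in clone 2. Since the weakest peaks of clone 3 rest on 25 reads, a promoter signal under about that level in clone 3 would not be listed.

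**Figure D2:**
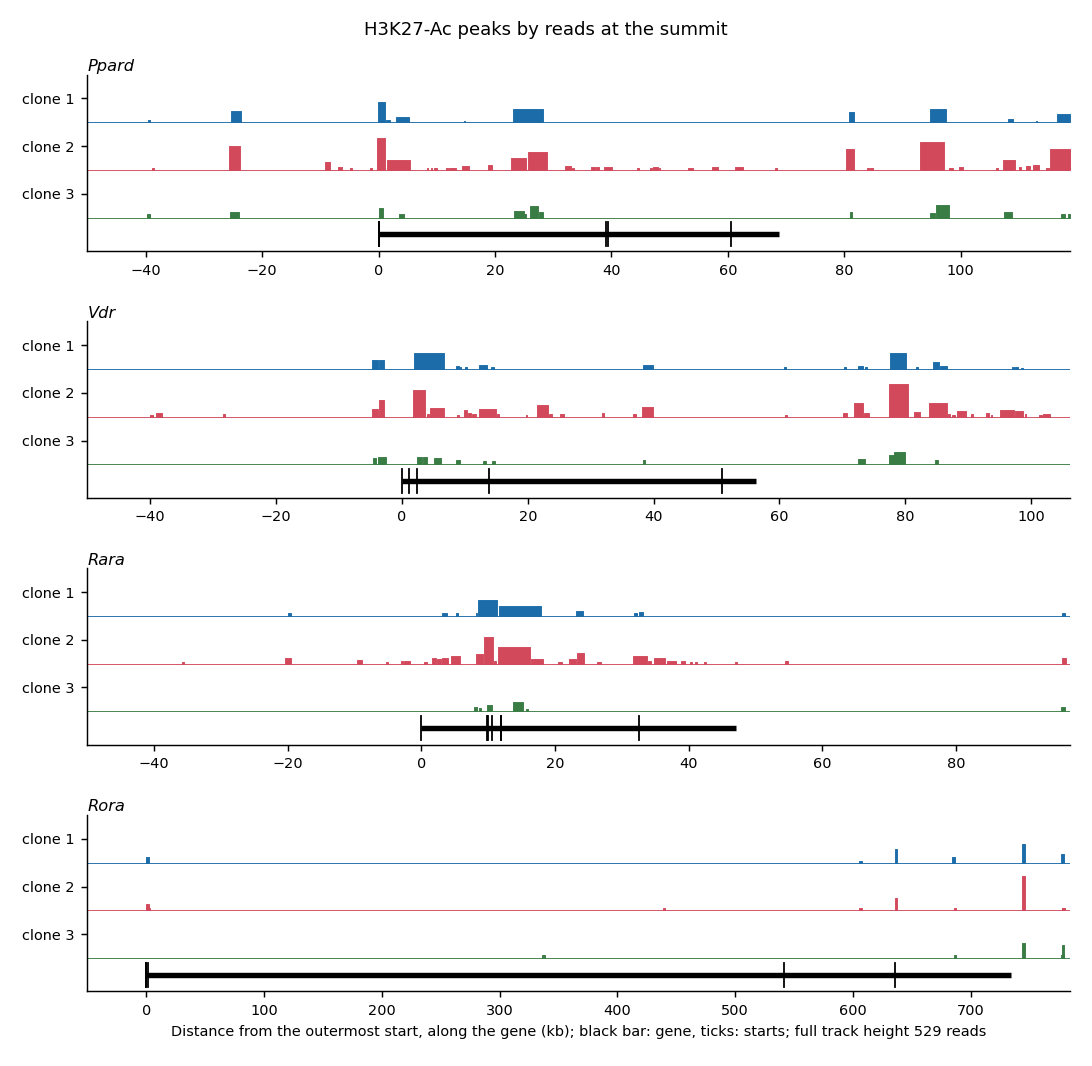
H3K27-Ac peaks along *Ppard*, *Vdr*, *Rara* and *Rora* and 50 kb on either side, by distance from the outermost start in kb along the gene, with 1 track per clone whose height is the ChIP reads at the summit (full track height 529 reads) and ticks for the annotated starts. *Rora* shows peaks at both groups of starts in clones 1 and 2 and none there in clone 3, and the clone 2 tracks of the other 3 genes hold many more peaks than those of clones 1 and 3.

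Acetylation around the genes was dominated by a few of them. The most bases under peaks within 50 kb were found around *Ppard*, with 18598, 45974 and 13820 in clones 1, 2 and 3 (mean 26131 ± 17350, SD, n = 3 clones). *Vdr* followed with 19188, 36974 and 10178, *Thra* with 23077, 26523 and 10439, *Rarg* with 19818, 24971 and 9535, and *Nr1d1* with 21808, 21373 and 10439. The order of these 5 differed between clones, with *Thra* first in clone 1 and *Ppard* in clones 2 and 3, though *Thra* had more than *Rarg* in every clone. Each lay above the upper quartile of all genes in every list, which was 5004, 7498 and 4424 bases. *Vdr* and *Rarg* lie on chromosome 15, whose raised background was not adjusted for. *Thra* and *Nr1d1* are neighbours with overlapping 3' ends on chromosome 11 and count largely the same bases. Peaks joined over gaps of up to 12.5 kb put both in a domain of 102.7 kb in clone 1, which ranked 16 of 14560 by bases under peaks, and in a domain of 114.3 kb in clone 2, which ranked 98 of 18280. In clone 3 *Thra* and *Nr1d1* fell in separate domains, ranking 5474 and 216 of 16371. *Ppard* lay in a domain that ranked 22 in clone 2, with 41 peaks and 44082 bases, and 181 in clone 1. In clone 3 its domain ranked 864, with 4 peaks and 4201 bases, and did not reach the promoter peak.

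Part of this signal sits at other genes. Of the peaks in the flanks of *Ppard*, 4 of 7 in clone 1, 6 of 19 in clone 2 and 6 of 8 in clone 3 lie within 1 kb of a start of *Def6*, *Fance*, *Rpl10a* or *Tead3*. Around *Vdr* it was 1 of 13, 4 of 23 and 2 of 6, all at *Hdac7*. Inside *Ppard* the clones shared a strong site. A peak 27 kb into the gene had 144, 196 and 125 reads and was its strongest body peak in each list. In *Vdr* the strongest body peak lay at a different site in each list. In *Rara* it lay at the same site in clones 1 and 2 and elsewhere in clone 3. The number of body peaks away from a promoter was 4, 21 and 5 in *Ppard*, 4, 14 and 4 in *Vdr*, and 4, 17 and 3 in *Rara* in clones 1, 2 and 3. Of the 439 merged peak regions within 50 kb of any receptor, 113 or 25.7% were held by all 3 lists, near the 27.3% of all 57727 regions, and 232 or 52.8% by clone 2 alone, where 43.7% of all regions were.

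**Figure D3:**
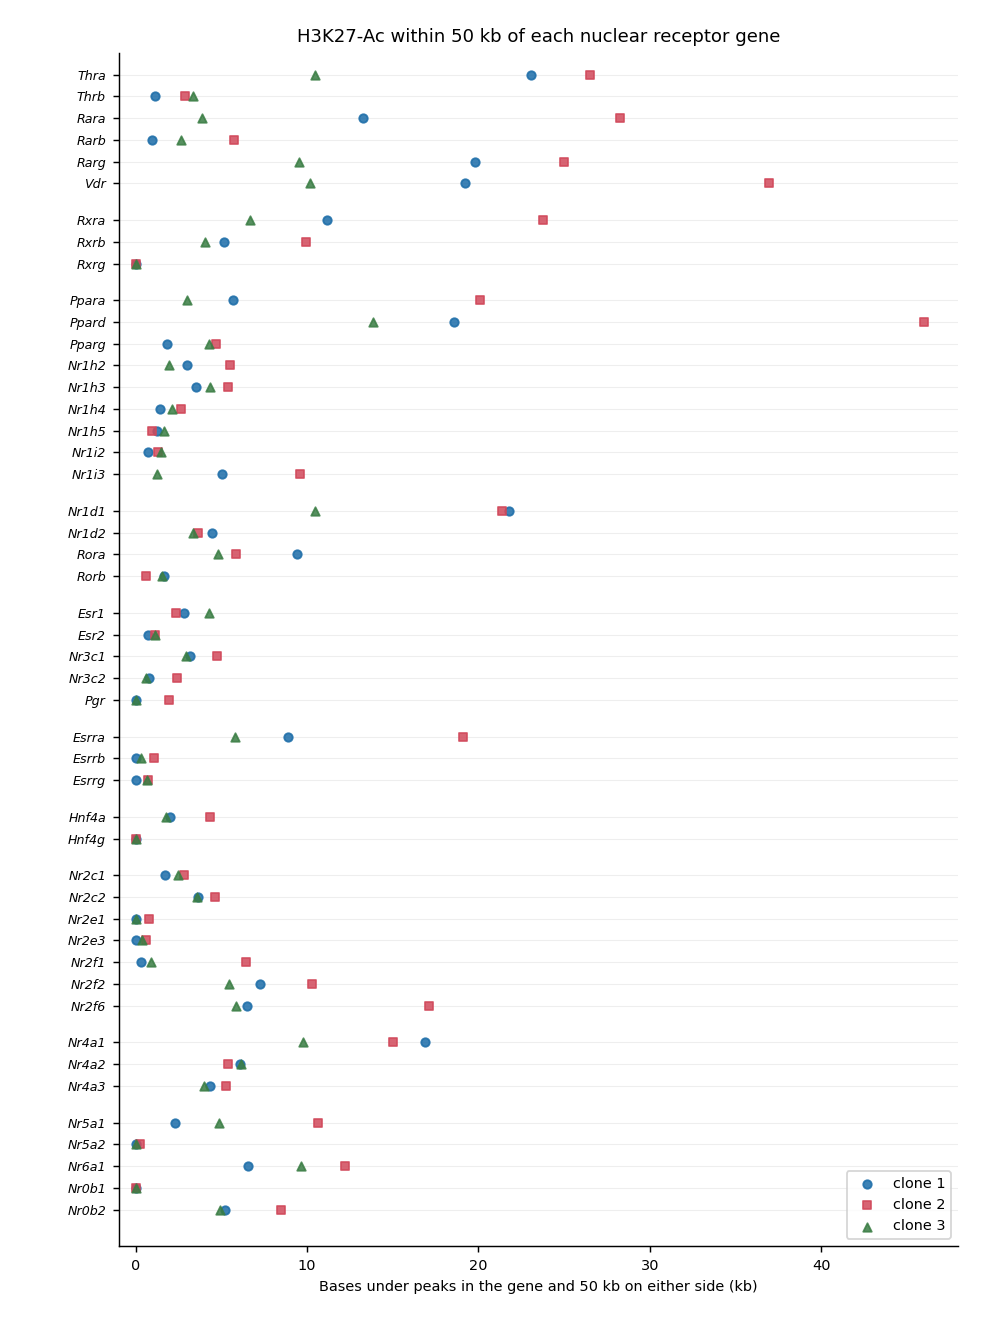
Bases under H3K27-Ac peaks in each receptor gene and 50 kb on either side, in kb, for clones 1 (circles), 2 (squares) and 3 (triangles). *Ppard* in clone 2 has the most, 45974 bases, and *Rxrg*, *Hnf4g* and *Nr0b1* are at 0 in all clones.

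The 15 receptors without a promoter peak in any list were *Rxrg*, *Nr1h5*, *Nr1i2*, *Nr1i3*, *Rorb*, *Esrrb*, *Esrrg*, *Hnf4a*, *Hnf4g*, *Nr2e1*, *Nr2e3*, *Nr5a1*, *Nr5a2*, *Nr0b1* and *Nr0b2*. Of these, 4 had a body peak in some list, and *Esrrb*, a factor of pluripotent cells, was the only one with a body peak in more than 1 list, at 34.8 kb into the gene with 95 reads in clone 2 and at 34.7 kb with 37 reads in clone 3. *Esrrg* had a body peak of 49 reads, *Nr1i2* of 36 and *Nr2e3* of 20, each in clone 2 only. *Rxrg*, *Hnf4g* and *Nr0b1* had no peak within 50 kb in any list. A lack of a peak at a gene did not mean a bare neighbourhood. *Nr0b2*, a repressor of bile acid synthesis in liver, had 5227, 8499 and 4907 bases under peaks within 50 kb, of which the strongest peak stood at the start of *Nudc* in clone 1 and of *Gpatch3* in clones 2 and 3. *Nr1i3* had 5024, 9582 and 1264, with the strongest peak at *B4galt3* in each list, and *Nr5a1*, which directs steroid synthesis in gonads and adrenal cortex, had 2292, 10660 and 4833, with the strongest at *Psmb7*. The flank of *Nr5a1* also reaches into *Nr6a1* on the same chromosome.

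*Ppara* was looked at for its place beside the dense H3K27-Ac domain that lies between it and *Wnt7b* on chromosome 15. *Ppara* (ENSMUSG00000022383) spans chr15:85734983-85802819 on the plus strand and has 6 annotated starts, and the outermost *Wnt7b* start lies 152.5 kb before it on the other strand. The domain ended 31.0 kb before the outermost *Ppara* start in clone 1, 25.0 kb before it in clone 2 and 34.5 kb before it in clone 3. On that side it runs into the non-coding RNA gene *Lncppara*, and in clone 2 also over the miRNA genes *Mirlet7c-2* and *Mirlet7b*. Between the domain and the *Ppara* promoter there was no peak in any list. Clone 2 alone had a peak at the *Ppara* promoter (chr15:85734945-85736217), with 40 reads, a fold enrichment of 7.48 and more reads than 56.4% of the peaks of its list. It covers the outermost start, and its summit lies 15 bp after the nearest annotated one. No list had another peak in the body of *Ppara*.

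Within 50 kb of *Ppara* peaks covered 5655, 20067 and 3004 bases in clones 1, 2 and 3, a mean of 9575 ± 9182 (SD, n = 3 clones). Of these, 4517, 17246 and 1654 bases lay before the gene, all of them in the part of the domain that the 50 kb reach except the first bases of the clone 2 promoter peak, and 1138, 1586 and 1350 after it. The peaks after the gene stand at the start of *Cdpf1*, with 137, 248 and 78 reads, and in clone 2 also at *Ttc38* with 23 reads. *Cdpf1*, the next protein-coding gene, was thus marked in every list, and *Ppara*, between it and the domain, in clone 2 alone. The whole domain held 33008, 44640 and 26534 bases under 22, 31 and 16 peaks.

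**Figure D4:**
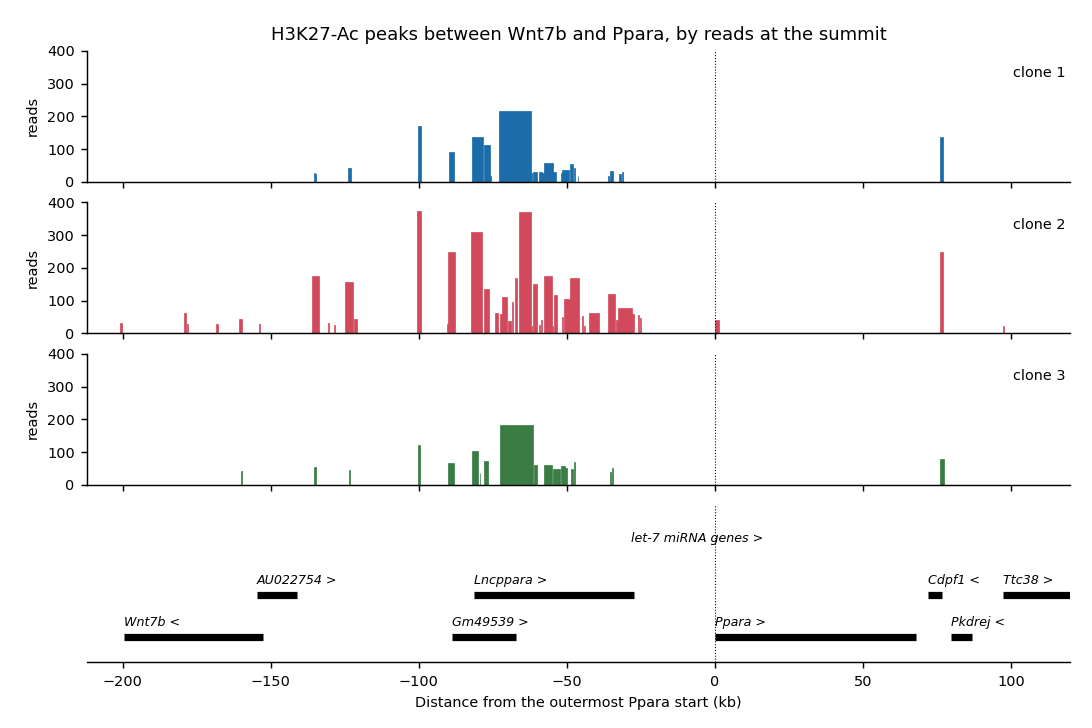
H3K27-Ac peaks between *Wnt7b* and the genes after *Ppara*, by distance from the outermost *Ppara* start in kb, with 1 track per clone. The height of a bar is the ChIP reads at the summit and its width the peak, and genes are drawn below with an arrow for their strand. The dense group of peaks ends 25.0 to 34.5 kb before *Ppara*, a peak at its start is seen in clone 2 only, and the peak at *Cdpf1* is seen in all 3 clones.

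The sequence around the starts went with the mark. In RefSeq promoter windows of 300 bases, 250 before and 50 after a start, the ratio of observed to expected CpG had a median of 0.689 for the 21 receptors marked in all 3 lists that have such a window, 0.537 for the 9 marked in 1 or 2 lists and 0.282 for the 13 marked in none. The groups overlapped, with 0.109 to 1.04, 0.427 to 1.05 and 0.130 to 0.770. Over all 16522 protein-coding genes with a window the medians were 0.794, 0.557 and 0.221, so that this order is not particular to receptors. *Thra*, *Nr3c1*, *Hnf4g* and *Nr5a1* have no window in the table used. Where the ratio was at least 0.6, 12 of 17 receptors were marked in all 3 lists, beside 78.9% of 8072 genes, and *Esrrg* and *Nr2e1* were marked in none. Under 0.6, 9 of 26 receptors were marked in all 3, beside 20.0% of 8450 genes, and these were *Rara*, *Rarg*, *Vdr*, *Rxra*, *Nr1h3*, *Nr1d1*, *Esr1*, *Nr2c2* and *Nr2f2*. The ratio is the median over the windows of a gene, and the start with the strongest peak need not be the one in the window, as in *Nr2f2*.

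**Figure D5:**
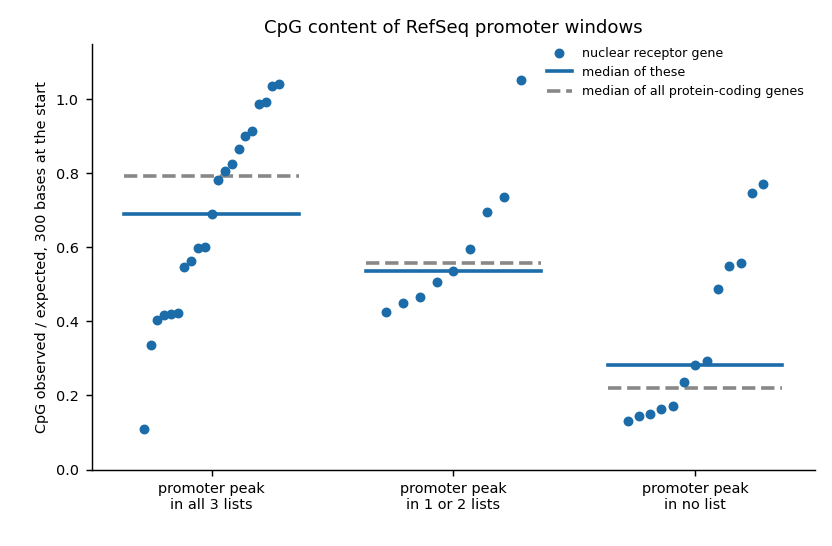
Ratio of observed to expected CpG in the RefSeq promoter windows of 43 receptor genes, by the number of lists with a promoter peak, with the median of each group (solid line) and of all protein-coding genes marked alike (dashed line). The medians of the receptors fall from 0.689 to 0.537 and 0.282, and single genes of all 3 groups overlap.

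The half-site AGGTCA that many of these receptors bind was looked for on both strands in the 300 bases around the summit of the strongest promoter peak. It was present at 3 of 24 receptors in clone 1, 3 of 32 in clone 2 and 5 of 25 in clone 3, that is 12.5%, 9.38% and 20.0%, beside 11.4%, 11.3% and 11.9% of all genes with a promoter peak. *Nr2c1* held it in all 3 lists and *Nr1d2* in clones 1 and 3. No receptor held a direct repeat of AGGTCA spaced by 0 to 5 bases, which at most 9 genes of a list held at any spacing. The E-box CACGTG, which reads alike on both strands and is the site of the clock activators, was looked for after the data were seen. It lay in the window of 3 receptors in clone 2 and 3 in clone 3, beside 5.90% and 6.71% of all genes, and of none in clone 1, beside 5.78%. *Rarg* held it in clones 2 and 3 and *Esrra* in clone 3, both within UTRs. The sites outside UTRs, at both clock receptors and at *Esr2*, are shown with the E-box in capitals.
Nr1d1, chr11:98775687-98775708: gagagcttCACGTGattggaga
Nr1d2, chr14:18238665-18238686: acaccgtgCACGTGgccagtgc
Esr2, chr12:76177318-76177339: gagaagccCACGTGaccacaaa
The *Nr1d1* site is in the window of clone 3 only, and those of *Nr1d2* and *Esr2* in that of clone 2 only, as the summits differ between lists. In these windows the cAMP response element TGACGTCA was found at *Nr6a1* alone, in clones 1 and 3, where 0.669% and 0.626% of all genes held it. It was at no receptor in clone 2, where 0.770% did. Receptors without a promoter peak in a list have no window there and were not searched. Of the promoter stretches printed above, that of the unmarked *Nr2e1* holds TGACGTCA and that of the unmarked *Nr0b2* holds CACGTG. A match describes the letters and is not a bound site.

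Genes that act with the receptors were described by lists of their own. Of 22 co-regulators 21 had a promoter peak in all 3 lists, where 46.5% of all protein-coding genes did. The exception was *Ppargc1b*, a coactivator of mitochondrial genes, with 64 and 166 reads in clones 1 and 2 and no promoter peak in clone 3. Within 50 kb of the methyltransferase gene *Carm1* peaks covered 8358, 18650 and 6976 bases, and within 50 kb of *Pprc1*, a coactivator related to *Ppargc1b*, 8314, 12428 and 6332. All 5 chaperones that hold steroid receptors were also marked in every list, beside the same 46.5% of all genes, with the most bases at *Stip1* (11453, 18697 and 7956), *Hsp90ab1* (9555, 15297 and 6333) and *Ptges3* (10752, 10574 and 6252).

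Genes that make, carry or break down the ligands were marked less widely, with 3 of 20 in all 3 lists, where 46.5% of all genes were, and 12 of 20 in none. The 3 were *Rdh10*, which takes retinol to retinal, *Dhrs3*, which reverses that step, and the fatty acid carrier *Fabp5*. The retinoic acid synthesis genes *Aldh1a1*, *Aldh1a2* and *Aldh1a3* had no promoter peak, nor had *Cyp27b1* and *Cyp24a1*, which activate and degrade vitamin D. By bases within 50 kb the list was led by the retinoic acid carrier *Crabp2* with 13287, 17582 and 9522, *Cyp27b1* with 5968, 11818 and 6887, and *Aldh1a3* with 7513, 6298 and 6676. *Crabp2* had a promoter peak in clones 1 and 2, with 83 and 73 reads. *Dio2* and *Dio3*, which activate and inactivate thyroid hormone, had promoter peaks of 158 and 109 reads in clone 2, none in clone 1, and in clone 3 of 35 reads at *Dio2* only.

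Of 26 genes known as targets of receptors 18 were marked in all 3 lists, 6 in some and 2 in none, where 46.5% of all genes were in all 3 and 42.6% in none. The glucocorticoid targets *Dusp1*, *Per1* and *Fkbp5* had the most bases within 50 kb, with 23090, 36597 and 18048 at *Dusp1*, 19154, 26650 and 11527 at *Per1*, and 21541, 23555 and 8196 at *Fkbp5*, and their promoter peaks had 213, 393 and 155, 259, 382 and 124, and 127, 200 and 72 reads. Many of these genes answer to other signals too. The fatty acid targets *Angptl4* and *Pdk4* and the cholesterol exporter *Abca1* had a promoter peak in clone 2 only, with 38, 101 and 61 reads.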

How the data were processed

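H3K27-Ac was profiled by ChIP-seq in 3 cell clones. Reads, single-end, were aligned by the authors to GRCm38 using bowtie2 defaults, and peaks were called per clone, after both libraries of clone 3 were joined. MACS2 2.1.1 is named in the submitters' processing notes, and peak names mark clones 1 and 2 as WASP checked. The deposited lists give the fold enrichment of the summit over its local background as a ratio of pileups, each plus 1, and the deposited −log10 values of p and q. The authors' files give no read count. Whole ChIP reads and the background were solved from fold and p, since p is a Poisson tail, for 100% of peaks, and lay within 0.00108 read of a whole number; the solution was tested on simulated data. The lowest −log10 q was 1.30, 1.33 and 1.35.

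On other sequences than chromosomes 1 to 19, X and Y lay 5, 21 and 3 peaks, which were dropped. Genes and starts came from GENCODE M21 on GRCm38, promoter windows from RefSeq GRCm38.p6, which match 43 of the 47 members by symbol, and an overlap of 1 bp counted. Python 3.11.15 with numpy 2.4.6, pandas 2.3.3, scipy 1.17.1, pysam 0.24.0 and matplotlib 3.10.9 was used. The members, the pathway and marker lists and the rule for named genes (all members by group, with Ppara and its neighbours, members marked in 1 or 2 lists and the 5 with the most bases in full, and 3 genes of each pathway list by bases) were chosen with earlier results of these data known. Other genes of the pathway lists, the CpG classes, the E-box and the cAMP response element were chosen after their values were seen. Some genes of the pathway lists are not reported here by name. No test between groups was made, since there is 1 condition. No IgG library of clone 2 is among the samples used here, and the labels do not say which control its peaks were called against. The settings varied were the q minimum (a −log10 of 5), the list size (29182 peaks in each), the rules for a promoter peak, the flank (25 and 100 kb), and the clones used, each left out in turn.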

Additional observations from a re-analysis of the deposited data

How the results depend on the processing

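Of 58 alternatives to 6 results, 54 stayed within 1.5 times of a count or within the SD over clones of a value. For *Ppara* that SD, 9182, is nearly as large as the mean of 9575. Even 1637 bases, with a flank of 25 kb, thus fell within it, and staying within it does not show stability there. The number of receptors with a promoter peak in all 3 lists went from 23 to between 18, with the outermost start only, and 25, and that with none from 15 to between 15 and 21, the last without clone 2. Those with neither a promoter nor a body peak numbered 11, and between 11 and 17 with a clone left out; the 17 came without clone 2, which has the most peaks, and then include *Esr2*, *Esrrg*, *Nr1i2*, *Nr2e3*, *Pgr* and *Ppara*. *Esr1* lost its place among the receptors marked in all 3 lists at a −log10 q of at least 5 and with equal numbers of peaks. The median of bases under peaks near a receptor, 3866, was 2371 with a flank of 25 kb and 5363 with 100 kb, and the bases near *Ppara*, 9575 ± 9182, were 1637 with 25 kb and 39843 with 100 kb, by construction of the window, which takes in less or more of the domain. Without a clone the latter were 4330 to 12861, the lowest without clone 2. No paired analysis was possible because there is 1 condition and no second group to pair within a clone. A site under 13, 12 or 25 reads is not listed in clones 1, 2 and 3, so that the lack of a peak does not show the lack of the mark.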
